A study of Saccharomyces cerevisiae with 6 samples.

Results

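Ribosome biogenesis factor genes encode the proteins that process ribosomal RNA in the nucleolus and assemble it with ribosomal proteins into the small and large ribosomal subunits. In the budding yeast Saccharomyces cerevisiae, 47 such genes were chosen by name, of which 46 had a row among the 6032 genes of the deposited tables and were followed here. IMP4 was not analysed here. By known role, 5 of the 46 belong to the core of small nucleolar ribonucleoproteins (snoRNPs), 14 act on the small subunit, 24 on the large subunit and 3 on both. The assignment to these classes is textbook background and used no measured value.

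RNA-seq had been carried out on strains labelled ASK10M475R (an ASK10 allele whose product carries the M475R substitution), ask10Δ (ASK10 deleted) and ASK10WT (wild-type ASK10), called M475R, deletion and WT below. The Ask10 protein regulates the glycerol channel Fps1, and the comparisons ask which transcripts differ with the allele and which with loss of ASK10. All 3 strains were grown in synthetic medium without uracil with 20 g/l glucose, and the labels do not say how the alleles were carried, whether a strain is 1 clone, or whether the replicates were separate cultures. Of 6 samples, 5 libraries were analysed: a pair each for M475R and WT, and replicate 2 of the deletion, whose replicate 1 was not analysed here.

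Total expected counts were 4155203 and 71228 in M475R replicates 1 and 2, 117680 in the deletion, and 102612 and 51576 in WT replicates 1 and 2. ASK10 itself had 567 and 4 counts in the M475R libraries, 0 in the deletion library, and 5 and 7 in the WT libraries. The 2 M475R libraries were as close as sampling noise allows (chi-square per degree of freedom 1.025 over 2876 genes, p = 0.168), as were the 2 WT libraries (1.005 over 2001 genes, p = 0.436), whereas libraries of different strains gave 1.37 to 5.75. Each pair was therefore counted as no more than 1 independent sample, since the labels do not say whether the replicates were separate cultures. Because edgeR was fitted to 5 separate libraries, its 2 residual degrees of freedom come from these pairs, and every p-value below compares libraries and not strains. A member had a median of 859 counts in M475R replicate 1 and of 16 to 32 in the other 4 libraries, so ratios of M475R rest mostly on replicate 1 for M475R and are limited by the counts of the other strain. Libraries were set side by side as CPM, that is, counts per 1000000 of the library size scaled by the trimmed mean of M values (TMM). At a count of 3, taken as the floor of detection, the CPM was 0.784 and 45.2 in the M475R libraries, 28.5 in the deletion, and 32.3 and 63.8 in the WT libraries.

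Ribosome assembly starts on the nascent ribosomal RNA, where the box C/D snoRNPs guide methylation and the box H/ACA snoRNPs guide pseudouridine formation. The U3 snoRNP and the Utp proteins form the small-subunit processome, while a separate series of RNA helicases, GTPases and scaffold proteins matures and exports the large subunit. In yeast these genes form a regulon that follows growth rate and is known for a pair of promoter elements, PAC and RRPE. PAC is bound by the repressors Dot6 and Tod6, and RRPE by Stb3.

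Both elements were looked for in the 250 bases before the annotated start of each gene, because many of these genes fell together in M475R, as given further on. PAC was searched as CGATGAG and RRPE as AAAATTTT, each on both strands. Matches of the 2 motifs cannot overlap each other, since no end of one equals a start of the other. The sequences are from RefSeq assembly R64 of strain S288C, matched by locus tag. The gene identifiers of the deposited tables carry the name of another strain, CEN.PK113-7D, so promoters and motif positions in the strains sequenced may differ from those shown. Gene lengths in the deposited tables equalled those of R64 for 43 of the 46 members. Shown here, on the strand of the gene and with motif matches in capitals, are the 2 promoters with both motifs whose genes had the smallest adjusted p for a fall in M475R relative to WT, and 1 promoter of a gene that fell and has neither motif.
NSR1 (chrVII:807657-807906, minus strand): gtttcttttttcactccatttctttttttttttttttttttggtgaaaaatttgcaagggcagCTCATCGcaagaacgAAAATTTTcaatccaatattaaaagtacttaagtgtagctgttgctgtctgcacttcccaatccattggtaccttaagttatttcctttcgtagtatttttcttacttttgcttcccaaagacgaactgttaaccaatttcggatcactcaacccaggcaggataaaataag
ENP2 (chrVII:781517-781766, plus strand): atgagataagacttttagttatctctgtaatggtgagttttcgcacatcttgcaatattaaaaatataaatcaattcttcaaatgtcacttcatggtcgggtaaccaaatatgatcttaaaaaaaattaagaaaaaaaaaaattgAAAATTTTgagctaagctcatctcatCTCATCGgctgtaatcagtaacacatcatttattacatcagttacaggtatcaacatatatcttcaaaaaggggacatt
RRP9 (chrXVI:802109-802358, plus strand): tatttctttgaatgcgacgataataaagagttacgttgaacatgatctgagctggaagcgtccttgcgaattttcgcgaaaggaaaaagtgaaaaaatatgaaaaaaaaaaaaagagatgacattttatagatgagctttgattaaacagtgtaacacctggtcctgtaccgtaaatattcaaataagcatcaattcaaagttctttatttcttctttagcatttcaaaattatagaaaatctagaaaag
In NSR1 and ENP2 the match to PAC lies in the reverse direction, as CTCATCG. RRP9 shows that a fall was also called for a gene without these exact letters in this window. The RRP9 window does hold GATGAG, which is PAC without its first letter.

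PAC was found in 35 of 46 member promoters (76.1%), against 379 of 6001 promoters in the whole genome (6.32%). RRPE was found in 37 members (80.4%), against 519 of 6001 promoters (8.65%). Both were present in 28 members (60.9%) and in 149 of all promoters (2.48%), whereas 2 members, RRP9 and UTP22, had neither. Among the 2858 promoters of tested genes the shares were 9.03% for PAC, 12.6% for RRPE and 4.09% for both. Large-subunit factors held PAC in 21 of 24 promoters and small-subunit factors in 11 of 14. Among the 5 snoRNP core genes RRPE was present in 5 and PAC in 1, NOP58. The 37 matches to PAC in members began 76 to 220 bases upstream with a median of 128, and the 47 matches to RRPE began 92 to 247 bases upstream with a median of 153. In 21 of the 28 members with both, RRPE was the farther from the gene, and the nearest pair of matches began 7 to 59 bases apart (median 15). A match describes these letters only and is not evidence of binding.

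**Figure D1:**
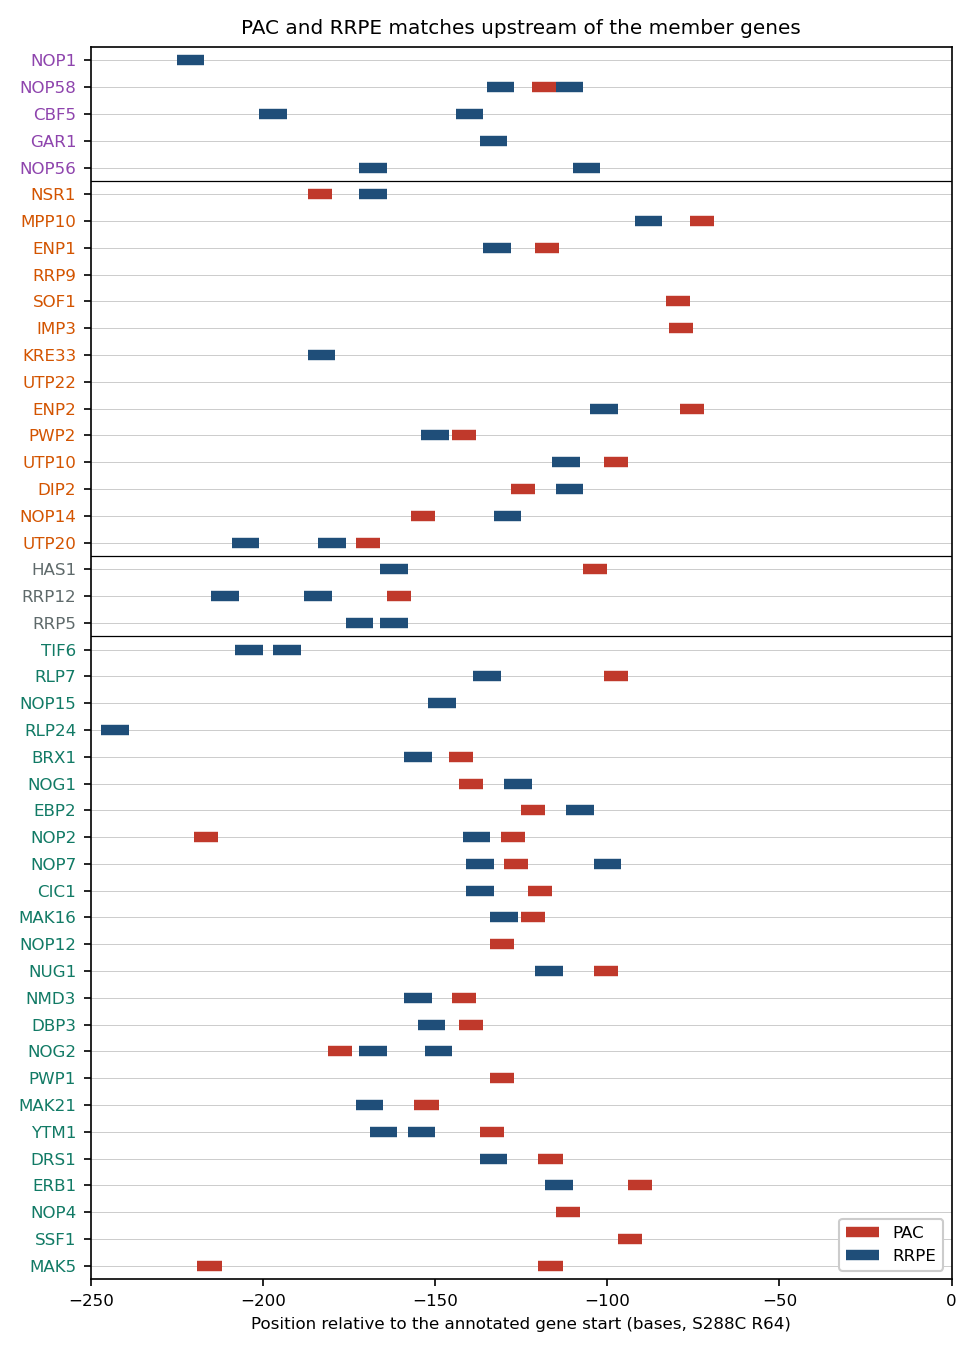
Positions of PAC (red) and RRPE (blue) matches in the 250 bases before each member gene, in bases from the annotated start in S288C R64, with genes grouped by class. In 21 of the 28 genes with both motifs RRPE lies upstream of PAC, and the snoRNP core genes at the top have PAC in 1 promoter.

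Levels of different genes were compared per length, as the authors' FPKM, which is scaled by gene length and library depth. In the deepest library, M475R replicate 1, the members spanned 25.6 to 600 FPKM with a median of 121. The snoRNP core genes stood near the top, at 393 to 600 FPKM (median 434), above large-subunit factors at 52.0 to 351 FPKM (median 150). Small-subunit factors lay at 25.6 to 476 FPKM (median 68.8), and the genes acting on both subunits at 79.5 to 155 FPKM.

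NOP1, which encodes the methyltransferase fibrillarin of box C/D snoRNPs, had 600 and 556 FPKM in the M475R libraries, 700 in the deletion, and 1087 and 789 in the WT libraries. NSR1, a nucleolin-like protein of early small-subunit assembly, had 476 and 469 FPKM in the M475R libraries, 504 in the deletion, and 775 and 907 in the WT libraries. These were the 2 members with the highest FPKM in M475R replicate 1 and in both WT libraries. NOP58, a box C/D core protein, had 434 and 476 FPKM in the M475R libraries, 564 in the deletion, and 484 and 516 in the WT libraries. CBF5, the pseudouridine synthase of box H/ACA snoRNPs, and its partner GAR1 had 434 and 404 FPKM in M475R replicate 1, 476 and 348 in replicate 2, 618 and 600 in the deletion, 600 and 553 in WT replicate 1, and 521 and 412 in WT replicate 2.

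At the other end, UTP20, a very large scaffold of the small-subunit processome, had 25.6 and 18.8 FPKM in the M475R libraries, 26.1 in the deletion, and 40.4 and 33.7 in the WT libraries. It was the lowest member in each of these 5 libraries. The next lowest in M475R replicate 1 were the large-subunit helicase gene MAK5 (52.0 FPKM) and the small-subunit genes NOP14 (55.9), DIP2 (58.1) and UTP10 (61.1). MAK5 had 55.4 FPKM in M475R replicate 2, 78.2 in the deletion, and 64.1 and 51.0 in the WT libraries. DIP2, a subunit of the UtpB complex, had 85.4 FPKM in M475R replicate 2, 72.9 in the deletion, and 59.3 and 69.3 in the WT libraries, so that its libraries overlapped between strains. Across the 46 members Spearman's rho between gene length and FPKM was -0.68 in M475R replicate 1 and -0.62 to -0.71 in the other libraries. FPKM already divides by length, and the points share a library. The rank of members by FPKM in M475R replicate 1 gave rho of 0.92 to 0.95 against the other 4 libraries.

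**Figure D2:**
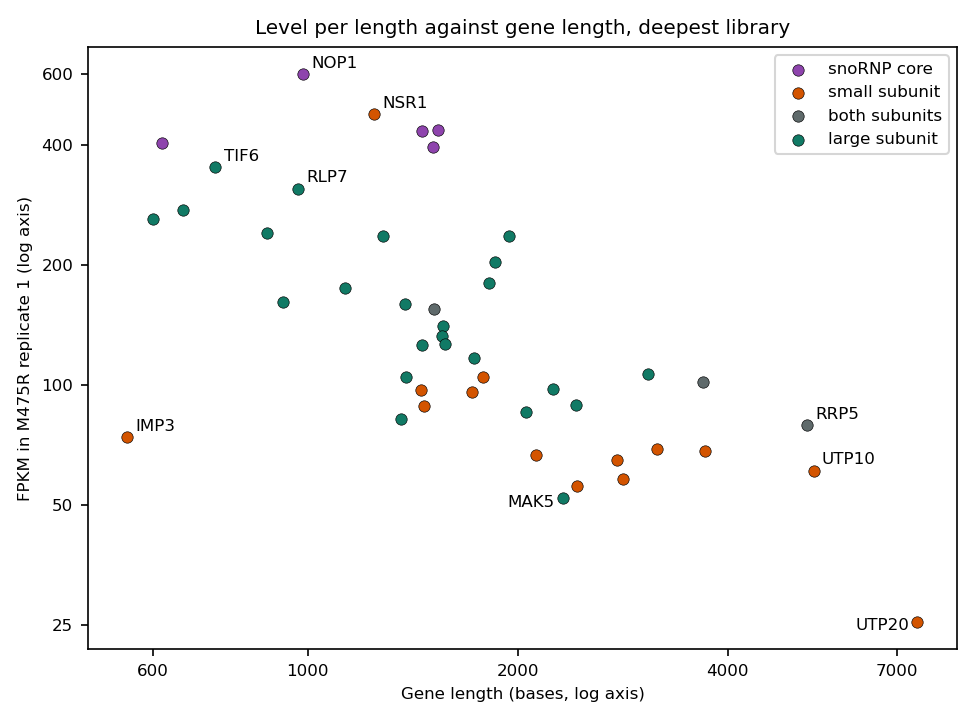
FPKM of each member in M475R replicate 1 against gene length in bases, both on log axes, coloured by class. The snoRNP core genes and NSR1 lie at the top, at 393 to 600 FPKM, and the longest gene, UTP20, lies lowest at 25.6 FPKM.

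Relative to WT, M475R had lower summed levels of biogenesis factors in each class. Summed over the 46 genes, the level was 12733 CPM (exact 95% Poisson interval 12620 to 12846) and 13052 CPM (12198 to 13951) in the M475R libraries, 15563 CPM (14818 to 16336) in the deletion library, and 18484 CPM (17620 to 19380) and 19021 CPM (17795 to 20309) in the WT libraries. M475R libraries were the lowest, WT libraries the highest, and the deletion lay between them with no overlap of these intervals, which cover counting error only. The members took 1.17% and 1.22% of all counts in M475R, 1.39% in the deletion, and 1.67% and 1.73% in WT. The ratio of M475R to WT was 0.683 (exact 95% interval 0.656 to 0.71). In bulk RNA, fewer cells that express a gene and less RNA per cell cannot be told apart.

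Of the 45 members that passed the filter on low counts, 17 fell in M475R relative to WT (edgeR quasi-likelihood test, Benjamini-Hochberg adjusted p under 0.05 over 2909 genes) and 0 rose, while 18.6% of all genes tested were called, 10.1% lower and 8.46% higher. The median log2 fold change of these members was -0.54, against 0.01 over all genes tested, and 44 of the 45 lay below 0, as did 49.2% of all genes tested. In 33 of the 45 both M475R libraries were below both WT libraries and in 0 they were both above, where 26.1% and 28% of all genes tested were. Many of the 17 calls depend on single libraries, as given per gene below. Fits with 1 library left in a strain also called fewer of all genes tested. Without M475R replicate 1, members were called lower about as often as all genes tested. The median log2 fold change of members was -0.53 without M475R replicate 1 and -0.56 without WT replicate 1. Over all genes tested in these fits it was -0.03 and 0.02. With DESeq2, NSR1 was the 1 of 45 members called, where 3.16% of all genes tested were called lower. With a biological coefficient of variation fixed at 20% there were 0, where 1.24% were called lower. In these fits, which called 126 and 84 genes in all, members were thus not called more often than other genes. The median log2 fold change of members stayed at -0.57 and -0.55.

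**Figure D3:**
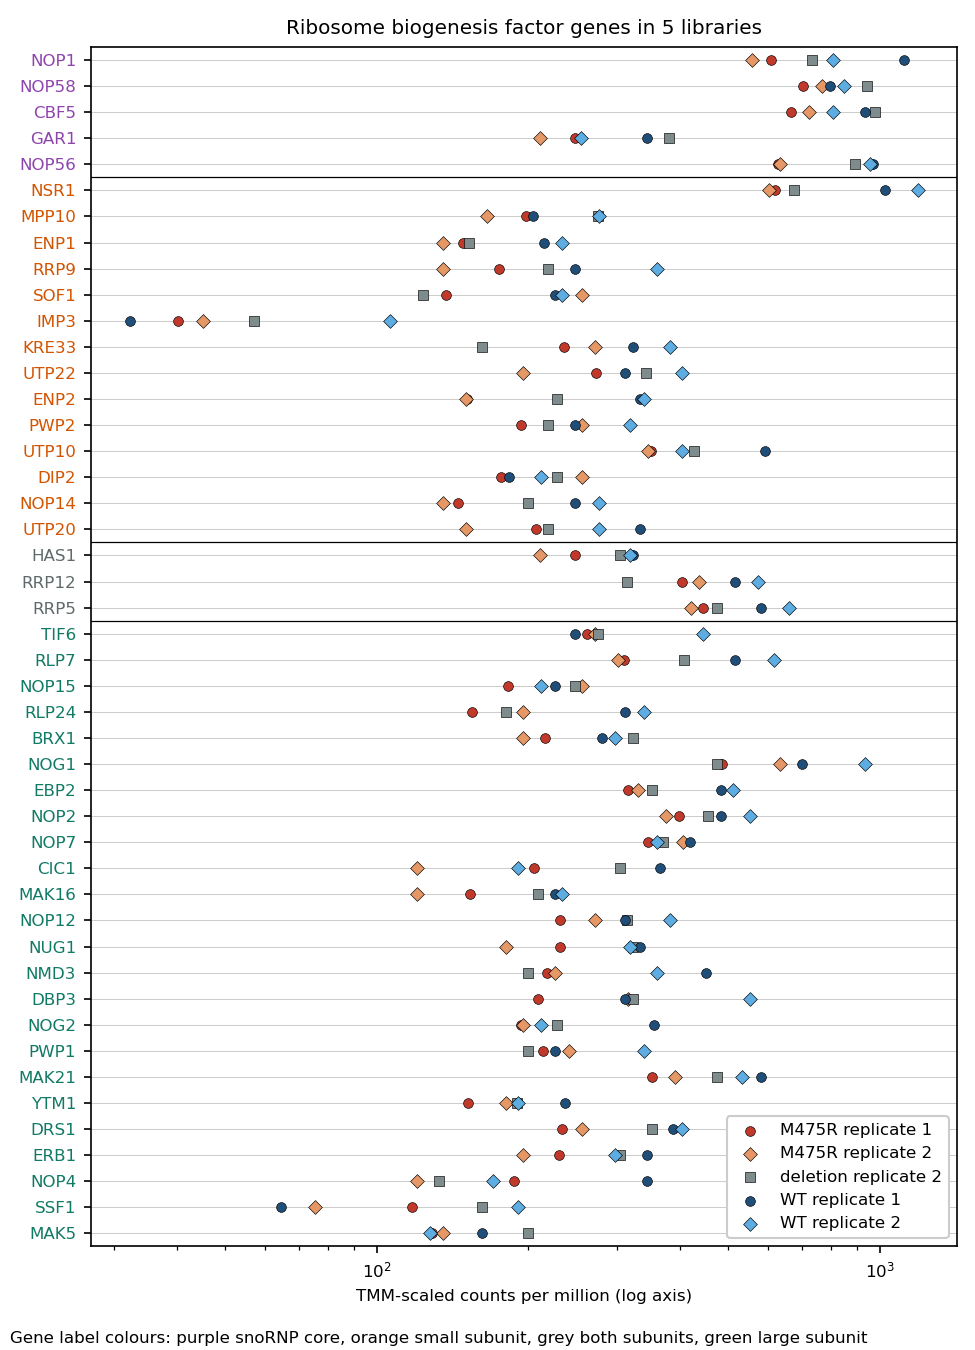
TMM-scaled CPM of each member in each of the 5 libraries on a log axis, 1 row per gene, grouped by class. For 33 of the 45 tested genes both M475R libraries (red, orange) lie left of both WT libraries (dark and light blue).

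Among the snoRNP core genes 3 of 5 fell. NOP1 had 608 and 557 CPM in the M475R libraries, 732 in the deletion, and 1120 and 808 in the WT libraries, a ratio of M475R to WT of 0.599 (95% interval 0.505 to 0.714). Its log2 fold change was -0.74 ± 0.15 (SE), with an adjusted p = 1.2e-05. NOP56, which encodes another box C/D core protein, had 627 and 632 CPM in M475R, 894 in the deletion, and 969 and 956 in WT (ratio 0.651, 0.547 to 0.779, adjusted p = 0.000478). For both genes the groups did not overlap, although for NOP1 the adjusted p was 0.436 when WT replicate 1 was left out. CBF5 had 666 and 723 CPM in M475R, 980 in the deletion, and 937 and 808 in WT (ratio 0.747, 0.624 to 0.901, adjusted p = 0.0395). The call of CBF5 was lost in 4 of the 5 fits that left out a library (highest adjusted p = 0.648), and that of NOP56 in 2 (highest 0.204). NOP58 (ratio 0.864, 0.716 to 1.05, adjusted p = 0.426) and GAR1 (0.787, 0.582 to 1.09, adjusted p = 0.341) did not pass. Counts of NOP58 were not whole in 4 of the 5 libraries, and how the authors' counting arrived at fractions is not stated in the labels or headers.

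Of 13 tested small-subunit factors 5 fell. NSR1 had 619 and 602 CPM in M475R, 675 in the deletion, and 1023 and 1190 in WT, a ratio of 0.573 (0.486 to 0.68). Its log2 fold change was -0.81 ± 0.14 (SE), with an adjusted p = 8.29e-07. It was the 1 member that kept its call in each of the 5 fits with a library left out (highest adjusted p = 0.0343). ENP2, a component of the small-subunit processome, had 151 CPM in both M475R libraries, 228 in the deletion, and 334 and 340 in WT (ratio 0.449, 0.333 to 0.618, adjusted p = 4.11e-05, with a log2 fold change of -1.15 ± 0.24 SE). This was the lowest ratio among the 46 members, and the groups did not overlap. NOP14, another processome protein, had 145 and 135 CPM in M475R, 200 in the deletion, and 248 and 276 in WT (ratio 0.564, 0.403 to 0.814, adjusted p = 0.0152).

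RRP9, a protein of the U3 snoRNP, had 175 and 135 CPM in M475R, 219 in the deletion, and 248 and 361 in WT (ratio 0.611, 0.444 to 0.863, adjusted p = 0.0297). UTP10, of the UtpA complex that first binds the transcript, had 351 and 346 CPM in M475R, 428 in the deletion, and 592 and 404 in WT (ratio 0.664, 0.525 to 0.85, adjusted p = 0.012). In both genes the M475R libraries lay below the WT libraries, with WT replicates that differed from each other by more than the gap. ENP2 and UTP10 lost their calls without M475R replicate 1 or WT replicate 1 (highest adjusted p = 0.143 and 0.824), and NOP14 and RRP9 without M475R replicate 1 or either WT library (highest 0.363 and 0.351).

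The other 8 tested small-subunit factors did not pass. UTP20 (ratio 0.657, 0.485 to 0.911, adjusted p = 0.0557), SOF1 (0.609, 0.426 to 0.899, adjusted p = 0.0573), KRE33, the acetyltransferase of small-subunit ribosomal RNA (0.69, 0.516 to 0.942, adjusted p = 0.082), and ENP1 (0.668, 0.465 to 0.992, adjusted p = 0.148) had intervals below 1. PWP2 (0.715, adjusted p = 0.19), UTP22 (0.793, 0.336) and MPP10 (0.864, 0.657) had intervals that held 1. DIP2, which partners PWP2 in UtpB, had a ratio of 0.921 (0.628 to 1.41). IMP3, a partner of MPP10, did not pass the filter, with 40.2 and 45.2 CPM in M475R, 57.1 in the deletion, and 32.3 and 106 in WT. Its ratio of 0.705 had an interval of 0.349 to 1.66. The values of IMP3 in M475R replicate 2 and WT replicate 1 were at the floor, so this ratio is not read as a change.

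Of 24 large-subunit factors 9 fell. RLP24, a placeholder on the precursor of the large subunit for a ribosomal protein, had 155 and 196 CPM in M475R, 181 in the deletion, and 312 and 340 in WT (ratio 0.483, 0.357 to 0.67, adjusted p = 0.000302, with a log2 fold change of -1.05 ± 0.24 SE). NMD3, the adaptor that carries the large subunit out of the nucleus, had 218 and 226 CPM in M475R, 200 in the deletion, and 452 and 361 in WT (ratio 0.518, 0.397 to 0.686, adjusted p = 0.000137, with a log2 fold change of -0.95 ± 0.21 SE). The deletion library lay between the M475R libraries for RLP24 and just below them for NMD3. TIF6, whose product keeps the subunits apart, did not pass (ratio 0.833, adjusted p = 0.501), with 262 and 271 CPM in M475R, 276 in the deletion, and 248 and 446 in WT.

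Among the GTPases, NOG1 had 486 and 632 CPM in M475R, 476 in the deletion, and 700 and 935 in WT (ratio 0.628, 0.517 to 0.768, adjusted p = 0.000403). NOG2 had 193 and 196 CPM in M475R, 228 in the deletion, and 355 and 213 in WT (ratio 0.629, 0.462 to 0.876, adjusted p = 0.0338). WT replicate 2 of NOG2 was close to the M475R libraries, and without WT replicate 1 its log2 fold change was -0.12, against -0.67 with it. The call of NOG2 was lost without WT replicate 1, M475R replicate 1 or the deletion library. NUG1, the other GTPase of the list, did not pass (0.702, 0.522 to 0.966, adjusted p = 0.11).

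Of the DEAD-box RNA helicase genes, DBP3 had 210 and 316 CPM in M475R, 323 in the deletion, and 312 and 553 in WT (ratio 0.538, 0.409 to 0.72, adjusted p = 0.000581). Its groups overlapped, since M475R replicate 2 lay just above WT replicate 1, and its adjusted p was 0.727 without M475R replicate 1 and 0.213 without WT replicate 2. The log2 fold change of DBP3 was -0.89, but -0.27 without M475R replicate 1 and -1.37 without WT replicate 1. DRS1 had 234 and 256 CPM in M475R, 352 in the deletion, and 388 and 404 in WT (ratio 0.596, 0.454 to 0.797, adjusted p = 0.00477). MAK5 (0.859, adjusted p = 0.717) and HAS1, which serves both subunits (0.769, 0.279), did not pass.

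The remaining falls were among scaffold and RNA-binding proteins of large-subunit precursors. RLP7 had 310 and 301 CPM in M475R, 409 in the deletion, and 517 and 616 in WT (ratio 0.563, 0.447 to 0.718, adjusted p = 0.000148). MAK21 had 352 and 391 CPM in M475R, 476 in the deletion, and 581 and 531 in WT (ratio 0.625, 0.498 to 0.795, adjusted p = 0.00234). EBP2 had 316 and 331 CPM in M475R, 352 in the deletion, and 484 and 510 in WT (ratio 0.642, 0.503 to 0.83, adjusted p = 0.00773). In these 3 genes the M475R libraries were close to each other and lay below both WT libraries. RLP7 and NOG1 lost their calls without M475R replicate 1 (0.141 and 0.639), MAK21, DRS1, NMD3 and RLP24 also without WT replicate 1 (highest adjusted p 0.333 to 0.45), and EBP2 without M475R replicate 1 or either WT library (highest 0.433).

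Within the complex of NOP7, ERB1 and YTM1, which acts in large-subunit processing, ratios were 0.869 (0.665 to 1.16), 0.7 (0.52 to 0.963) and 0.688 (0.479 to 1.02), and none of these genes passed (lowest adjusted p = 0.109). NOP2, a methyltransferase of large-subunit ribosomal RNA, had 400 and 376 CPM in M475R, 457 in the deletion, and 484 and 553 in WT (ratio 0.787, adjusted p = 0.207). The other large-subunit factors that did not pass were NOP4 (ratio 0.651), CIC1 (0.663), MAK16 (0.666), NOP12 (0.691), BRX1 (0.753), PWP1 (0.812), NOP15 (0.828) and SSF1 (1.09, 0.654 to 1.96). SSF1 was the 1 tested member above WT, on 6 and 9 counts in the WT libraries, and its reads may be shared with its near-identical copy SSF2. RRP5, which is needed for both subunits, had 446 and 421 CPM in M475R, 476 in the deletion, and 581 and 659 in WT (ratio 0.734, 0.59 to 0.924, adjusted p = 0.0542), and RRP12, an export factor of both, had 404 and 437 CPM in M475R, 314 in the deletion, and 517 and 574 in WT (ratio 0.755, 0.599 to 0.965, adjusted p = 0.115).

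**Figure D4:**
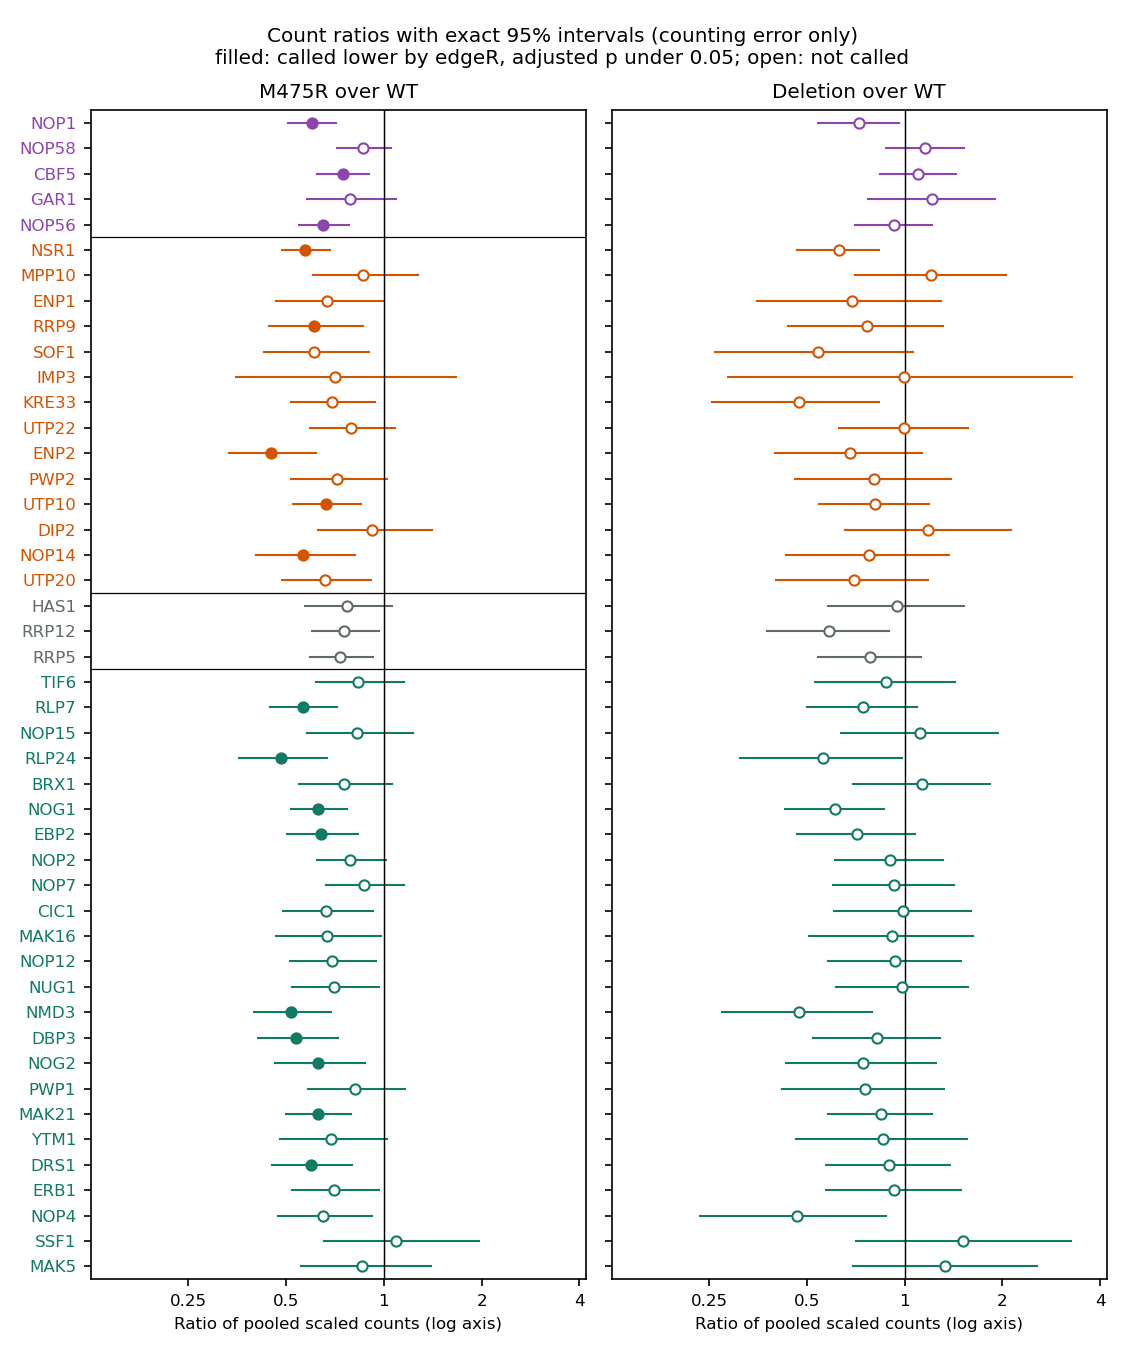
Ratio of pooled TMM-scaled counts with its exact 95% interval for each member, M475R over WT at left and deletion over WT at right, on log axes, with filled points for genes called lower by edgeR. In the left panel 17 genes are filled and SSF1 alone of the tested genes lies above 1, while the right panel has 0 filled points.

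Small- and large-subunit factors had similar ratios. The small-subunit sum was 3051 and 3101 CPM in the M475R libraries, 3529 in the deletion, and 4521 and 5016 in the WT libraries, with a ratio of M475R to WT of 0.651 (0.602 to 0.705). The large-subunit sum was 5731 and 5992 CPM in M475R, 7011 in the deletion, and 8376 and 8777 in WT, with a ratio of 0.674 (0.636 to 0.715). The ratio was 0.713 (0.655 to 0.777) for the snoRNP core and 0.75 (0.651 to 0.867) for the 3 genes of both subunits. Median log2 fold changes of tested members were -0.59 for the small subunit, -0.56 for the large subunit, -0.41 for the snoRNP core and -0.40 for both subunits. As a share of the counts of both subunit classes, small-subunit factors took 34.7% (exact 95% binomial interval 34.2 to 35.2) and 34.1% (30.3 to 38.0) in M475R, 33.5% (30.7 to 36.4) in the deletion, and 35.1% (32.3 to 37.8) and 36.4% (32.7 to 40.2) in WT. A shift of balance between the subunit classes was thus not detectable at this depth.

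**Figure D5:**
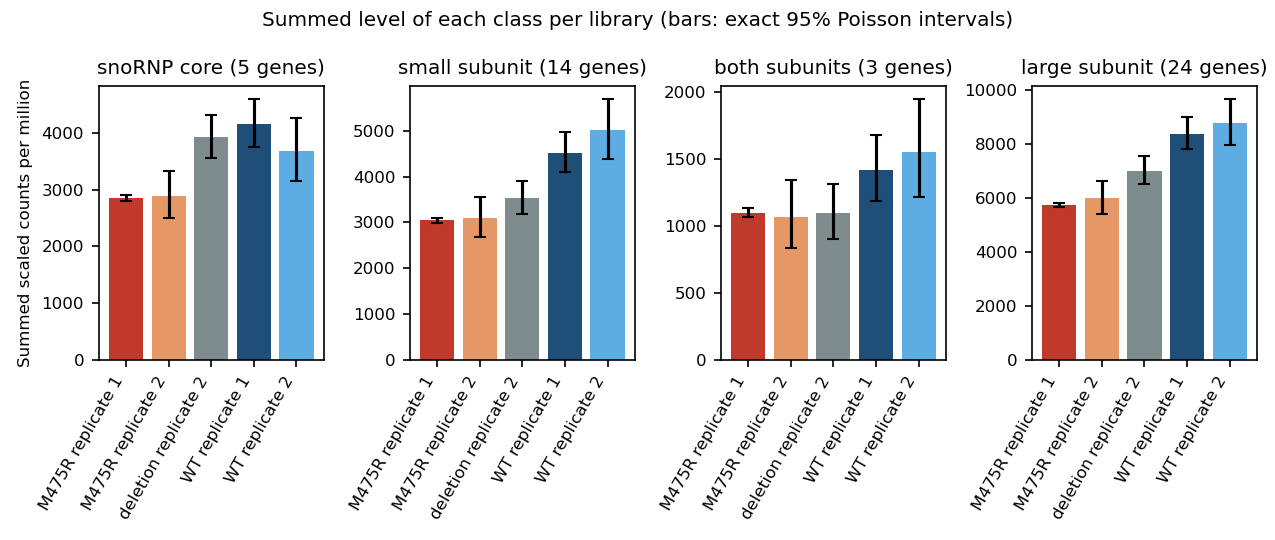
Summed TMM-scaled CPM of each class in each library, with exact 95% Poisson intervals as error bars. For the small- and large-subunit classes the M475R bars are lowest (3051 to 3101 and 5731 to 5992 CPM) and the WT bars highest, whereas for the snoRNP core the deletion bar (3929 CPM) stands between those of the WT libraries.

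The deletion was also set against WT, which asks what loss of the gene does. None of the 45 tested members passed by edgeR (0 lower and 0 higher, where 0.688% of all genes tested were called, 0.206% lower and 0.481% higher), 8 of the 45 had an unadjusted p under 0.05 where 8.35% of all genes tested did, and DESeq2 also called 0. The summed level of the members was 0.834 times that of WT (95% interval 0.783 to 0.887), and their median log2 fold change was -0.25, against 0.00 over all genes tested. The ratio was 0.753 (0.661 to 0.856) for small-subunit factors, 0.824 (0.75 to 0.904) for large-subunit factors, 0.747 (0.589 to 0.943) for genes of both subunits and 0.982 (0.863 to 1.12) for the snoRNP core.

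The lowest single ratios of the deletion to WT were those of NOP4, an RNA-binding large-subunit factor (0.466, 0.234 to 0.875, adjusted p = 0.323), KRE33 (0.472, 0.254 to 0.835, adjusted p = 0.255) and NMD3 (0.474, 0.273 to 0.791, adjusted p = 0.174). NOP4 had 133 CPM in the deletion and 344 and 170 in WT, and its log2 fold change of -1.10 was -0.36 without WT replicate 1, so that its low ratio rests on that library. KRE33 had 162 CPM in the deletion and 323 and 382 in WT. NSR1 had a ratio of 0.626 (0.465 to 0.835, adjusted p = 0.168), NOG1 of 0.611 (0.428 to 0.861, 0.243) and RRP12 of 0.586 (0.377 to 0.893, 0.323). In NOP1, RLP24, RRP12 and KRE33 as well as in NSR1, NOG1, NMD3 and NOP4 the interval lay below 1. Ratios above 1, all with intervals that held 1, were found in 9 members of several classes: SSF1 (1.51), MAK5 (1.33), GAR1 (1.21), MPP10 (1.21), DIP2 (1.18), NOP58 (1.16), BRX1 (1.13), NOP15 (1.12) and CBF5 (1.1).

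In M475R against the deletion, 2 of 45 tested members fell, CBF5 (ratio 0.68, 0.559 to 0.837, adjusted p = 0.0173) and NOP56 (0.702, 0.571 to 0.872, adjusted p = 0.0389), and 0 rose, where 10.3% of all genes tested were called, 6.19% lower and 4.09% higher. These 2 of 45 are a smaller share than the 6.19% of all genes tested, so the count of calls is not read as a result about the members. Both genes encode snoRNP core proteins. Each call was lost when either M475R library was left out (highest adjusted p = 0.541 and 0.476), neither was made by DESeq2, and with the replicate number as a block 1 member, CIC1, was called in their place. The summed level was 0.819 times that of the deletion (0.779 to 0.86), with 0.726 (0.658 to 0.803) for the snoRNP core, 0.818 (0.76 to 0.882) for large-subunit factors, 0.865 (0.78 to 0.962) for small-subunit factors and 1 (0.834 to 1.22) for genes of both subunits. The median log2 fold change of tested members was -0.33, against 0.01 over all genes tested. The 3 comparisons share libraries, so their values are not independent of each other.

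Other genes of the pathway, listed by known role, were read in the same fit. In M475R relative to WT, 13 of 50 tested further small-subunit factors fell and 0 rose (median log2 fold change -0.53), and 7 of 46 further large-subunit factors fell and 0 rose (-0.50). UTP25 (ratio 0.38, 0.277 to 0.532, adjusted p = 2.71e-06) and UTP4 (0.49, 0.371 to 0.658, adjusted p = 7.95e-05), both of the processome, and RRP14 (0.458, 0.341 to 0.627, adjusted p = 5.05e-05) were among them. Of 8 tested genes of RNA polymerase I and its initiation factors 3 fell, RPC40 (0.557), RPA34 (0.569) and RPA49 (0.646), with a median of -0.62. In the snoRNP assembly list 2 of 6 fell, the small box C/D protein gene SNU13 (0.625) and SRP40 (0.606), and among exosome and nuclease genes 3 of 15 fell, RRP45 (0.425), the RNA helicase gene MTR4 (0.639) and POP1 (0.587). The list of transcriptional regulators had 0 called lower and 1 called higher of 10, with a median of -0.04. The 1 was TOR2, a kinase of the TOR complexes, with 116 and 90.3 CPM in M475R, 105 in the deletion, and 32.3 and 21.3 CPM in WT. Both WT values were at or below the floor, so no fold is given and the call is not read as a rise. These counts stand beside the 10.1% of all genes tested that were called lower and the 8.46% called higher.

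For the deletion relative to WT, 0 genes of the 6 lists passed, with median log2 fold changes of -0.46 and -0.33 for the further small- and large-subunit factors and -0.02 for the regulators. In M475R relative to the deletion, 1 of 50 further small-subunit factors (PNO1, ratio 0.614) and 1 of 46 further large-subunit factors (RRP15, 0.448) fell, both shares below the 6.19% of all genes tested that were called lower, and 0 genes of the lists rose. The medians of the further small- and large-subunit factors were -0.06 and -0.19.

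The promoter motifs could be set beside these changes in genes outside the 46 members. Among tested genes that are no members, the 89 with both PAC and RRPE had a median log2 fold change of -0.46 in M475R relative to WT, with 22 called lower and 0 higher. The 135 with PAC alone had a median of -0.21 (17 lower, 6 higher), the 233 with RRPE alone -0.16 (27 lower, 16 higher) and the 2356 with neither 0.07 (198 lower, 219 higher). Without the genes of the 6 lists the medians were nearer to 0, at -0.31 for 45 genes with both motifs (7 lower, 0 higher), -0.03 for 108 with PAC alone (11 lower, 6 higher) and -0.09 for 193 with RRPE alone (22 lower, 16 higher). In the deletion relative to WT the medians were -0.38 for genes with both motifs (-0.20 without the lists) and 0.03 for genes with neither, and in M475R relative to the deletion they were -0.09 (-0.11 without the lists) and 0.04. Within the members, 12 of 28 tested members with both motifs, 0 of 6 with PAC alone, 4 of 9 with RRPE alone and 1 of 2 with neither fell in M475R relative to WT.

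The authors' deposited tables also include 6 filtered lists of genes for pairs of libraries or strains, of 2 to 88 genes each. None of the lists held a member (0 of 46 in each of the authors' deposited tables). Since even the longest list holds 88 of the 6032 genes of the series, 0 of 46 is near the share over all genes. It is not read as a result about the members.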

How the data were processed

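Transcript levels were measured by RNA-seq of 5 libraries from 3 yeast strains. Per the file headers, the authors gave an expected count per gene and library (98.2% of values whole within 1e-09) and an FPKM, in which a count of 0 was written as 0.001. Per the submitters' processing notes, BWA and Bowtie were used, while the build, annotation, counter and strand setting are not given in the sources used here. The authors' log2 ratio and FDR, a p-value adjusted by them, in the deposited filtered lists served only to find listed members. Another 20 per-sample columns of these lists went unused.

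A library's values were equal in the 7 full tables that hold it (0 differences). Expected counts entered the fit as whole numbers after rounding. Identifiers were matched by locus tag to RefSeq R64 (5515 of 6032 matched). edgeR 4.0.16 (R 4.3.3) was run with TMM, filterByExpr on the 3 groups and 1 quasi-likelihood fit of 5 libraries, with Benjamini-Hochberg adjustment over 2909 genes and a threshold of 0.05. The biological coefficient of variation was 3.18% with 2 residual degrees of freedom and 1 deletion library assumed to vary like the others, so p-values carry little beyond counting error. The procedure was also run on simulated counts, drawn as independent libraries with little spread beyond counting error. That run cannot show how the calls behave where replicates are not independent or vary more. For a ratio, counts of a strain's libraries were summed and divided by their TMM-scaled sizes, with an exact conditional binomial 95% interval (SciPy 1.17.1). PCR copies are not independent molecules, so these intervals and the floors describe counting error alone. Alternatives included DESeq2 1.42.0, other scalings and filters, a fixed variation, a replicate block and leaving out each library.

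The members and lists were chosen with earlier results of these data known. Named with values per library were members called in any comparison, the 5 highest and 5 lowest by FPKM in the deepest library, and the 2 with the highest counts in each class; from each other list, up to 3 called genes per direction. Outside this rule, TIF6 and IMP3 and, for the deletion, NOP4 and KRE33 were given per library after their values were seen.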

Additional observations from a re-analysis of the deposited data

How the results depend on the processing

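Counts of members called depended on the estimate of spread and on single libraries. For M475R relative to WT, 17 fell; DESeq2 gave 1, a biological coefficient of variation fixed at 20% gave 0, and leaving out a library gave 2 to 16. For M475R relative to the deletion, 2 fell; DESeq2 and the fixed variation gave 0, total count scaling 1, and leaving out a library 0 to 2. In that comparison 6.19% of all genes tested were called lower in the main fit. DESeq2 called 1.75% lower, the fixed variation 1.31% and total count scaling 4.98%, so members were not called more often than other genes. There the replicate block gave 1 (3.61%), CIC1, in place of CBF5 and NOP56. For M475R relative to WT the main fit called 10.1% lower, DESeq2 3.16% and the fixed variation 1.24%. Fits with 1 library left in a strain called smaller shares than the main fit. Without M475R replicate 1, members were called lower about as often as all genes tested. The block gave 18 (9.28%), of which 15 were among the 17. DBP3 and RRP9 were lost with adjusted p = 0.0505 and 0.0731 by edgeR, and UTP20, CIC1 and NOP4 were gained. For the deletion relative to WT the block gave 0 (0.172%). The replicate numbers are shared by label only: the differences between replicates 1 and 2 of WT and of M475R had a correlation of -0.02 across tested genes. For the deletion relative to WT each of the alternatives gave 0.

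The ratios of summed small- and large-subunit counts stayed within their main intervals in each comparison under other scalings, the authors' FPKM, without NSR1 and with a library left out. Total count scaling gave 156 higher and 145 lower genes overall for M475R relative to the deletion, against 119 and 180. Without the filter on low counts the median log2 fold change of all genes was 0.15 for M475R relative to WT and 0.12 relative to the deletion.

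Signs turned in members not called in M475R relative to WT. DIP2 had a log2 fold change of 0.0498 with DESeq2, 0.02 with the fixed variation and 0.0412 with the replicate block, and SSF1 had -0.0299 with the fixed variation. With 1 library left out, log2 fold changes ranged over -0.24 to 0.45 for DIP2, -0.28 to 0.0652 for NOP7, -0.73 to 0.20 for SOF1 and -0.31 to 0.25 for NOP15, each highest without M475R replicate 1. The range was -0.70 to 0.85 for SSF1, which was below 0 without M475R replicate 1 (-0.46) or WT replicate 1 (-0.70). It was -0.33 to 0.0311 for MAK5, -1.30 to 0.10 for CIC1 and -1.19 to 0.14 for NOP4, each highest without WT replicate 1, and -0.75 to 0.0775 for TIF6, highest without WT replicate 2. The cause was not tested.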
